A study of Rattus norvegicus with 20 samples.

Results

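The liver breaks down the amino acids that are not needed for protein synthesis. Aminotransferases and dehydratases remove the amino group, periportal hepatocytes turn the ammonia into urea, perivenous hepatocytes bind the remainder as glutamine, and the carbon skeletons go on to glucose, ketone bodies or the citric acid cycle. Many of these enzymes are abundant in mature hepatocytes and scarce elsewhere, and several are induced by fasting, glucagon and glucocorticoids.

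Expression of 49 genes of the urea cycle and of amino acid breakdown, listed by name and ordered by the amino acid they handle, was followed in control liver and in 3 kinds of preneoplastic lesion. Of the 49 genes, 44 had a named probe, 1 for each gene. Uroc1, Glul, Prodh, Pcca and Hibadh had no named probe and were not analysed here. A gene was tested if its normalized signal, a brightness on a linear scale, exceeded 200 on at least 5 arrays. Shmt1 exceeded it on 0 arrays and Mccc2 on 2, so that 42 members were tested among 6102 genes in all. Each of the 42 exceeded 200 on all 20 arrays, so that no member passed through a single group. Their signals ranged from 217 to 37380, and the genes lie on 17 chromosomes. The brightness of a probe is not comparable between genes, and every comparison below is within a gene.

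The arrays came from male Fischer rats. The lesions arose under the R-H (Resistant-Hepatocyte) protocol: a single dose of diethylnitrosamine (DENA) initiates hepatocytes, then dietary 2-acetylaminofluorene (2-AAF) with partial hepatectomy (PH) drives the initiated cells to grow. Each of 4 groups had 5 arrays: control liver, early preneoplastic foci (EPFs), and nodules that were either CK-19-positive or CK-19-negative, here the positive and the negative nodules. A pool of foci went onto each EPF array, laser-microdissected on day 7 after PH, which was 4 weeks after DENA. Nodules were collected 7 weeks after PH (10 weeks after DENA), 1 nodule per array, and were sorted into their group by staining for CK-19, a keratin of bile duct and progenitor cells. The controls were age-matched normal livers whose time is not given, and their labels name no treatment. The arrays are not tied to rats, so that p-values measure the spread between arrays, and the recent 2-AAF and PH of the EPFs cannot be told apart from their kind of lesion.

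The deposited signals were quantile normalized, so that array medians lay between 157.0 and 157.5. All EPF arrays were on a chip of their own, so that chip and lesion cannot be told apart there. All positive arrays shared chip 1 with 2 control arrays and negative nodule 5. The tissue was hepatocytic by its markers: summed signals of 7 hepatocyte markers, such as albumin, ranged from 153469 to 229403 in control liver, from 188476 to 209548 in EPFs, from 201329 to 227226 in positive nodules and from 197811 to 232862 in negative nodules. Apob, 1 of the 7, was under 200 on every array. Summed signals of 6 biliary and oval cell markers were 1222 to 1475 in control liver, 2571 to 5510 in EPFs, 8270 to 14814 in positive nodules and 1362 to 3941 in negative nodules. Red blood cell markers moved the other way, from 24968 to 50217 in control liver to 5633 to 7050 in EPFs, 6350 to 12928 in positive and 8082 to 20364 in negative nodules (4 markers, of which Hba-a2 and Alas2 were under 200 throughout). Summed signals of 6 stellate cell and fibroblast markers were 2665 to 4291 in control liver, 3666 to 8228 in EPFs, 6202 to 9531 in positive nodules and 3242 to 5389 in negative nodules. Of the 6, 1 was called higher in EPFs (16.7%, against 6.26% of all genes tested). In positive nodules 2 were called higher (33.3%, against 4.95%) and in negative nodules 0 (against 1.29%). Those of 7 macrophage markers were 8806 to 16957 in control liver, 6346 to 8795 in EPFs, 9155 to 16726 in positive and 6752 to 9219 in negative nodules. In each lesion 1 of the 7 macrophage markers was called lower (14.3%). Of all genes, 6.15% were called lower in EPFs, 4.9% in positive and 0.656% in negative nodules. Endothelial markers overlapped with the controls in all 3 lesions. The part of these other cells in the results was not tested. In such bulk samples fewer cells of a type and less RNA per cell cannot be told apart.

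EPFs and positive nodules each had lower signals for many of the genes, while negative nodules stayed near control liver. A gene was called when limma's Benjamini-Hochberg adjusted p over all 6102 genes was under 0.05 and the difference was at least 2-fold. In EPFs, 9 of the 42 members were called lower and 3 higher than in control liver, against 6.15% and 6.26% of all genes tested. In positive nodules 12 were called lower and 0 higher, against 4.9% and 4.95% of all genes. In negative nodules 1 was called lower and 1 higher, against 0.656% and 1.29% of all genes. As shares of the 42, the lower calls made up 21.4% in EPFs and 28.6% in positive nodules, both above the share of all genes, while the higher calls in EPFs made up 7.14%, near the share of all genes, and the negative nodules had 2.38% in each direction, a single gene. The 2 sets are not alike. The members exceeded 200 on all 20 arrays, where 5 arrays sufficed for a gene to be tested, and they were chosen with earlier results of these data known. The median log2 difference from control over the 42 members was -0.57 in EPFs, -0.66 in positive and -0.14 in negative nodules, where that of all genes tested was -0.02, -0.01 and -0.00. Members below control numbered 29, 39 and 29 of 42. At an unadjusted p under 0.05 and with no fold limit, 24 were lower and 5 higher in EPFs, 35 lower and 2 higher in positive nodules, and 14 lower and 4 higher in negative nodules. The shares of all genes under this looser rule are not given here, so these counts cannot be set against a background.

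**Figure D1:**
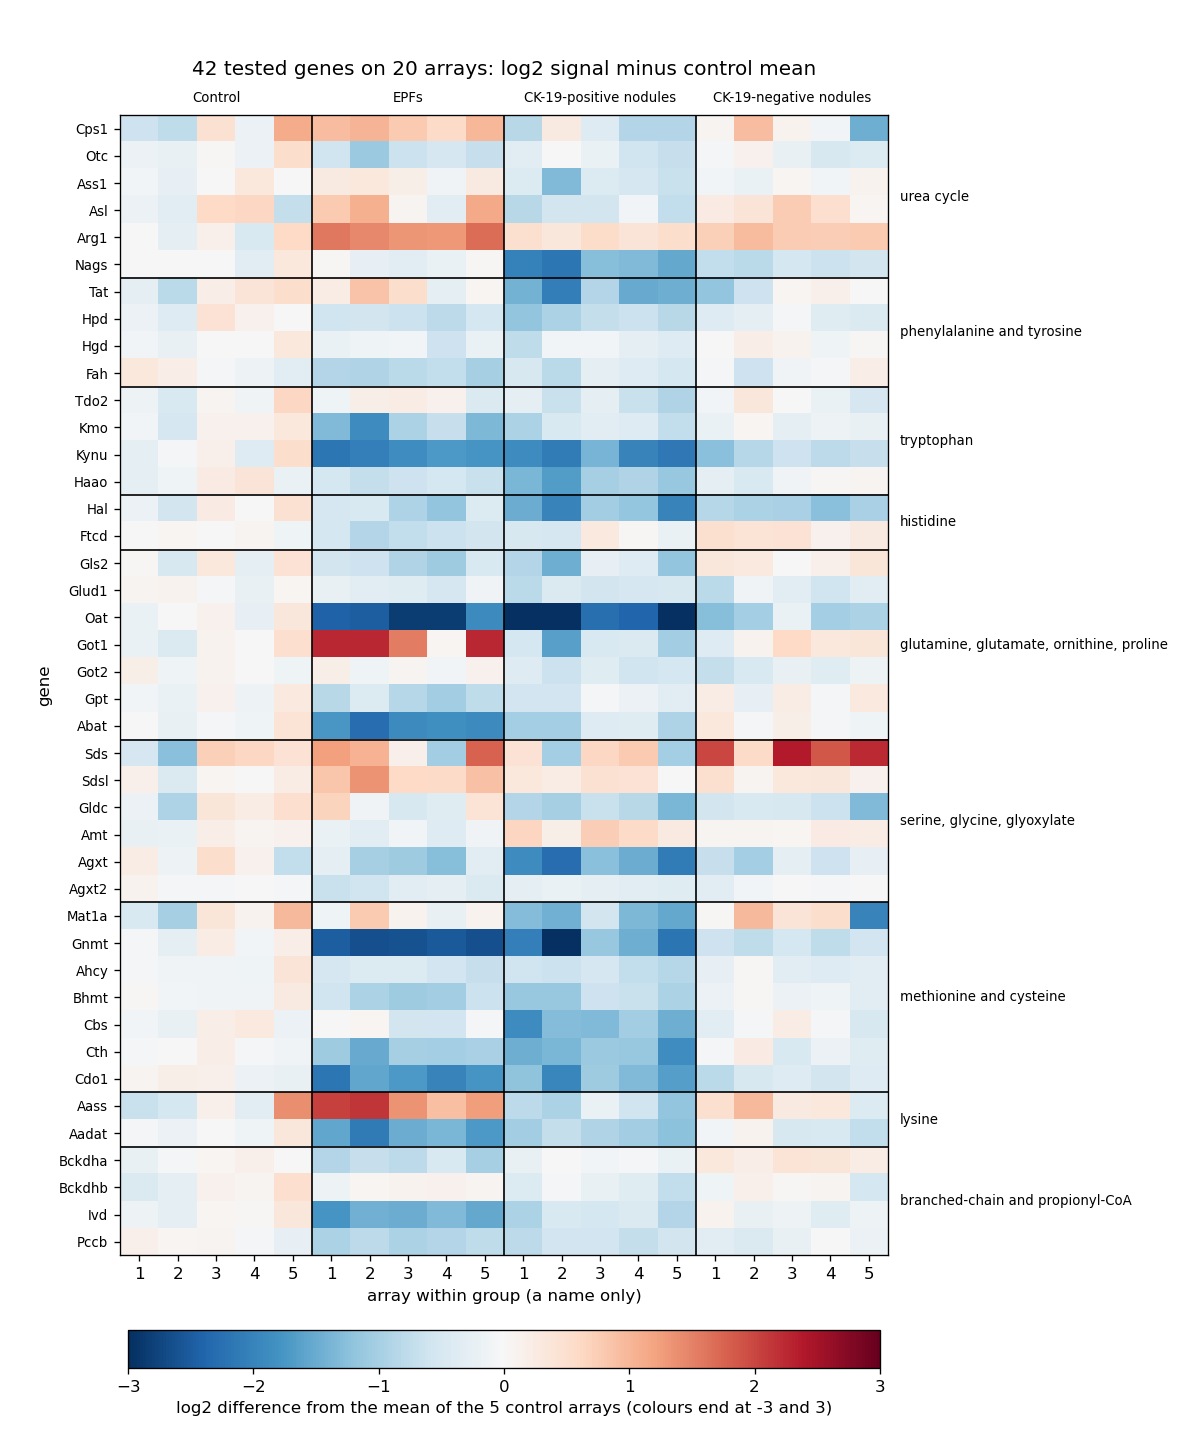
Log2 signal of the 42 tested genes (rows, by amino acid handled) on each of the 20 arrays (columns, by group), minus the mean of the 5 control arrays; blue is lower and red higher. Oat, Gnmt and Kynu are blue on all EPF and positive arrays, Arg1 is red on all EPF arrays, and Got1 is red on 4 of the 5.

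The 3 lists of calls share their 5 control arrays, so they are given side by side and not as independent evidence of one another. Called lower in both EPFs and positive nodules were 5 members: Cdo1, Cth, Gnmt, Kynu and Oat. Called lower in EPFs and not in positive nodules were 4: Aadat, Abat, Ivd and Kmo. Called lower in positive nodules and not in EPFs were 7: Agxt, Cbs, Haao, Hal, Mat1a, Nags and Tat. Of the members called lower, 9 of 9 in EPFs and 11 of 12 in positive nodules had every lesion array below every control array. A gene called at 2-fold will often be apart in this way. The share among all called genes was not counted, here or for the lesion contrasts below, so these counts only describe the members. Aass, Arg1 and Got1 were called higher in EPFs, and 22 of the 42 were called in no lesion. Per array, the median member lay between -0.58 and -0.44 on the log2 scale relative to the control mean in EPFs, between -0.89 and -0.48 in positive nodules, between -0.24 and -0.00 in negative nodules and between -0.22 and 0.31 in the controls themselves, so that the EPF and positive arrays lay below all control arrays and the negative arrays overlapped with them. Within groups, control array 2 was the lowest of its group for 23 members and control array 5 the highest for 24. EPF pool 4 was the lowest for 20 members and positive nodule 3 the highest for 24.

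**Figure D2:**
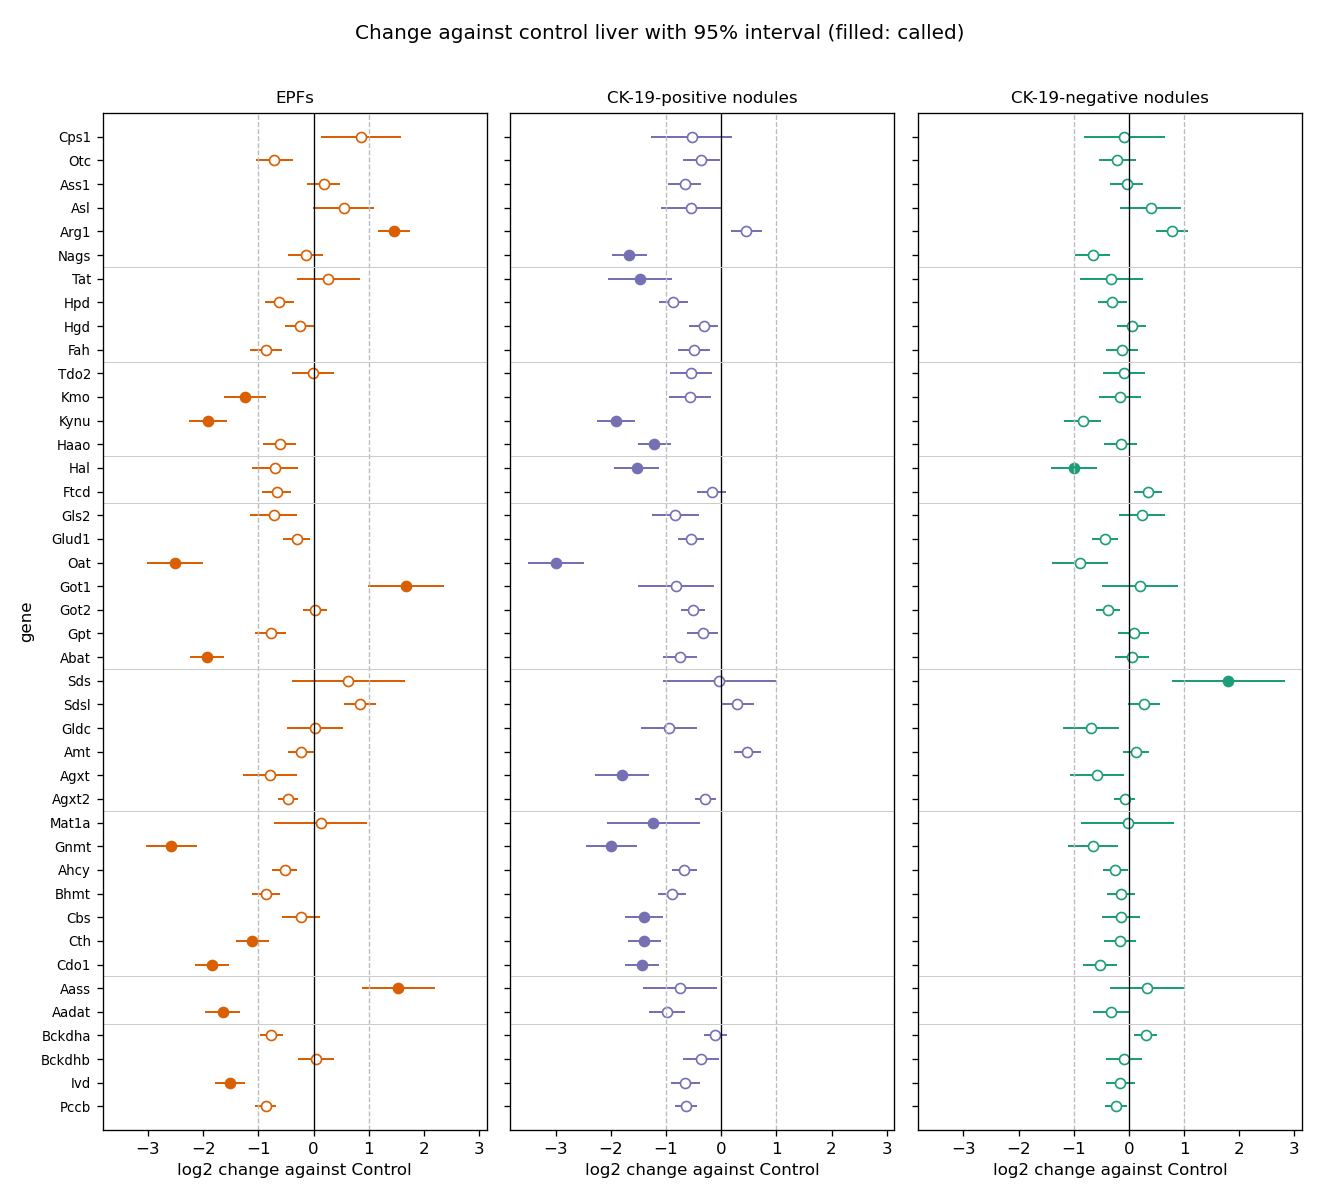
Log2 change against control liver of each of the 42 genes (rows) in EPFs, positive and negative nodules, with the 95% interval from limma; filled points were called and dashed lines mark 2-fold. Oat and Gnmt lie farthest to the left in EPFs and positive nodules, and Sds lies farthest to the right in negative nodules.

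The start regions of Oat, Gnmt and Got1 are printed because Oat and Gnmt had the largest falls of the set and Got1 the largest rise in EPFs. They are from RefSeq (GRCr8), 5′ to 3′ on the gene's strand, and run from 250 bases before to 50 bases after the start that the table gives. Capitals mark CCAAT boxes (CCAAT, or ATTGG on the other strand) and matches to TGACNNNGC, a core of the antioxidant response element, on either strand. The Oat start is the 5′ end of the annotated gene, whereas the start given for Gnmt lies 47 bases and that for Got1 7751 bases inside the annotated span, so that other starts of these genes were not searched. Oat, chr1:196797705-196798004, minus strand, has CCAAT boxes at positions -81 and -56. Gnmt, chr9:21752032-21752331, plus strand, has CCAAT boxes at -228 and -75 and an antioxidant core at -7. Got1, chr1:252329822-252330121, minus strand, has 6 CCAAT boxes and an antioxidant core at -44 that shares a base with the CCAAT box at -36.
Oat: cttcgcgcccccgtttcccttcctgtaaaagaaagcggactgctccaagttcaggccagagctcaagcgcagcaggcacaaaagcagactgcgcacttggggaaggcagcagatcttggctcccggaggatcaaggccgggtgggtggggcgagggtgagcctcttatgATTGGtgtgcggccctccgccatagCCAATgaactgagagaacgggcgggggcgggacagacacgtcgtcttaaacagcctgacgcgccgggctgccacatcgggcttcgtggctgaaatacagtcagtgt
Gnmt: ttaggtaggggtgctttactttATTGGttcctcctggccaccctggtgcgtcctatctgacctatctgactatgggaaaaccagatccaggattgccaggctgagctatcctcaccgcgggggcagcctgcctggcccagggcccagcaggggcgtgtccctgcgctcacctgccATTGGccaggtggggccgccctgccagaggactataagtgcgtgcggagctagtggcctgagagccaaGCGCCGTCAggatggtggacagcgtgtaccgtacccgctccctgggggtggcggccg
Got1: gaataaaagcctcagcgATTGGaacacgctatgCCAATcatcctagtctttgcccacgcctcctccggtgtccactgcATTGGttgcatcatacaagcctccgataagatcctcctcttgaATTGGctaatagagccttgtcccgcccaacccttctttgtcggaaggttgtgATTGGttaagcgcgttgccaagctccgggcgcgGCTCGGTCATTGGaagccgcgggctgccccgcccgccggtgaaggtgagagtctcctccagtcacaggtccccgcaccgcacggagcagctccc
Promoters were given for 34 of the tested members and for 27457 genes in all. The CCAAT box occurred in 18 of the 34 (52.9%) and in 37.7% of all promoters. The antioxidant core occurred in 6 of the 34 (Agxt2, Gls2, Gnmt, Got1, Haao and Hpd) and in 12.2% of all. The TATA box (TATAAA) occurred in 6 and in 14.3% of all, the C/EBP motif (TTGCNNAA) in 4 and in 10.5% of all, and the cAMP response element (TGACGTCA) in 0 and in 1.91% of all, each counted on both strands. A match is a description of these letters. The 6 members with the antioxidant core included called falls (Gnmt, Haao), a called rise (Got1) and members called in no lesion against control (Agxt2, Gls2, Hpd).

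The urea cycle did not move as 1 block. Of its 6 tested members, 1 was called higher in EPFs (Arg1) and 1 lower in positive nodules (Nags). Of all genes tested, 6.26% were called higher in EPFs and 4.9% lower in positive nodules. A single gene of the 6 is 16.7%, too few to set against these shares. In negative nodules 0 were called, against 1.29% of all genes higher and 0.656% lower. Arg1 encodes arginase 1, which splits arginine into urea and ornithine. Its signals were 11736, 9450, 12801, 8482 and 17493 in control liver and 34664, 31437, 29101, 28495 and 37380 in EPFs. They were 16122, 14697, 17007, 15150 and 16806 in positive nodules and 18993, 22516, 19594, 19282 and 19869 in negative nodules. All EPF arrays lay above all other arrays, and all negative arrays above all control arrays. Arg1 was 2.76-fold higher in EPFs than in control liver (log2 change 1.47, SE 0.14, adjusted p = 8.934e-09 from limma). In positive and negative nodules the change was 0.46 and 0.79 on the log2 scale, under 2-fold (adjusted p = 0.009609 and 0.00042).

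Nags makes N-acetylglutamate, the required activator of carbamoyl phosphate synthetase. Control signals were 2549, 2539, 2512, 1996 and 3120, EPF signals 2573, 2126, 1993, 2180 and 2587. In positive nodules they were 619, 562, 1043, 1006 and 870, and in negative nodules 1510, 1430, 1755, 1602 and 1728. The 4 groups formed 3 levels, with control liver and EPFs overlapping, negative nodules below them and positive nodules lowest. Nags was 3.17-fold lower in positive nodules than in control liver (log2 change -1.66, SE 0.15, adjusted p = 7.442e-09 from limma), and EPFs were higher than positive nodules by 1.52 on the log2 scale (adjusted p = 6.058e-08). In negative nodules the log2 change was -0.65 (adjusted p = 0.005002).

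Cps1, carbamoyl phosphate synthetase 1, carries out the entry step of the cycle in mitochondria. Its control signals were scattered, at 6459, 5851, 13758, 8857 and 21597. EPFs had 18993, 20279, 17189, 14840 and 20067, positive nodules 5568, 12139, 7671, 5462 and 5434, and negative nodules 10625, 18993, 10764, 9430 and 3633. Every EPF array was above every positive array, while both groups overlapped with the controls. Controls 1 and 2 and negative nodule 5, which shared chip 1 with all positive nodules, were the lowest of their groups. Chip and lesion cannot be told apart in the contrast of EPFs with positive nodules. Cps1 was 2.64-fold higher in EPFs than in positive nodules (log2 difference 1.40, SE 0.35, adjusted p = 0.002428 from limma). Against control liver it differed by 0.86 in EPFs (95% interval 0.13 to 1.59, adjusted p = 0.04153) and by -0.54 in positive nodules (-1.27 to 0.19, adjusted p = 0.22), neither of which reached 2-fold.

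The other cycle enzymes differed by less than 2-fold from control in every lesion. Otc, which makes citrulline, was at -0.71 in EPFs on the log2 scale (adjusted p = 0.0007156 from limma). Ass1, which joins citrulline and aspartate, was at -0.66 in positive nodules (adjusted p = 0.0007247) and at 0.19 in EPFs. Asl, which releases arginine, was at 0.55 in EPFs and -0.55 in positive nodules, with intervals that reach 0, and was called 2.14-fold higher in EPFs than in positive nodules (log2 difference 1.10, adjusted p = 0.001669). Asl was no longer called without EPF pool 2 or 5 (0.97 and 0.95). Arg1, called in the same contrast at 1.01, fell just under 2-fold without any of 4 arrays and with chip as a random block (0.99).

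Among the tyrosine enzymes, Tat was the member that was called. Tat, tyrosine aminotransferase, is the first and rate-limiting step of tyrosine breakdown and a textbook glucocorticoid target. Control signals were 5505, 3842, 7686, 8788 and 9676 and EPF signals 7826, 12234, 9633, 5462 and 6955. positive nodules had 2509, 1594, 3665, 2378 and 2438, and negative nodules 2972, 4352, 7046, 7432 and 6836. The positive arrays lay below all control and all EPF arrays, and negative nodule 1 fell among them. Tat was 2.77-fold lower in positive nodules than in control liver (log2 change -1.47, SE 0.28, adjusted p = 0.000148 from limma) and 3.33-fold lower than in EPFs (adjusted p = 2.53e-05). Within chip 1, where 2 control arrays met the 5 positive arrays, the change against control was -0.92 (adjusted p = 0.02133), under 2-fold. Further down the pathway, Hpd was at -0.62 in EPFs and -0.87 in positive nodules, Fah at -0.86 and -0.49, and Hgd at -0.24 and -0.32, on the log2 scale and under 2-fold. Hpd, Hgd and Fah carry tyrosine carbon from hydroxyphenylpyruvate to fumarate and acetoacetate.

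Tryptophan is opened by Tdo2 and then passes along the kynurenine pathway through Kmo, Kynu and Haao. Tdo2 stayed near control in EPFs (log2 change -0.01, 95% interval -0.39 to 0.37) and was at -0.55 in positive nodules. The later steps were lower. Kynu, kynureninase, had control signals of 4532, 5343, 6130, 4169 and 7941. In EPFs they were 1215, 1320, 1500, 1657 and 1606, in positive nodules 1473, 1274, 2076, 1365 and 1235, and in negative nodules 2297, 3008, 3587, 3168 and 3391. Every lesion array was below every control array, and the negative arrays lay between. Kynu was 3.78-fold lower in EPFs (log2 change -1.92, SE 0.17, adjusted p = 2.209e-09 from limma) and 3.76-fold lower in positive nodules (-1.91, adjusted p = 3.466e-09). The difference between these lesions was -0.01, with an interval of -0.35 to 0.34. In negative nodules the change was -0.84 (adjusted p = 0.001227), under 2-fold.

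The enzymes on either side of kynureninase were called in 1 lesion each. Kmo, kynurenine 3-monooxygenase, was 2.36-fold lower in EPFs (log2 change -1.24, adjusted p = 4.446e-06 from limma) and at -0.56 in positive nodules. Its EPF signals ran from 966 to 2205 and its control signals from 2519 to 4455. Haao, which oxidises 3-hydroxyanthranilate on the way to NAD, was 2.32-fold lower in positive nodules (-1.22, adjusted p = 3.918e-07) and at -0.61 in EPFs. The direct contrasts of EPFs with positive nodules were -0.68 for Kmo (adjusted p = 0.003855) and 0.60 for Haao (adjusted p = 0.001675), both under 2-fold.

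Histidine breakdown was represented by Hal and Ftcd. Hal, histidine ammonia-lyase, is the entry step and a periportal enzyme. Its control signals were 1050, 818, 1422, 1192 and 1642 and its EPF signals 833, 869, 626, 520 and 903. positive nodules had 423, 298, 580, 535 and 299, and negative nodules 660, 614, 608, 496 and 609. Both kinds of nodule lay below all controls, and EPFs overlapped with the controls. Hal was 2.90-fold lower in positive nodules (log2 change -1.54, SE 0.20, adjusted p = 1.46e-06 from limma) and 2.00-fold lower in negative nodules (-1.0, adjusted p = 0.001413). The second call stood at the threshold: it was lost without control 3, control 5 or negative nodule 4 (-0.94, -0.89 and -0.94) and with chip as a fixed block (-0.97). In EPFs Hal was at -0.70 (adjusted p = 0.005234). Ftcd, which passes the formimino group of histidine to folate, was at -0.67 in EPFs, -0.17 in positive and 0.35 in negative nodules, and was called 2.02-fold lower in EPFs than in negative nodules (adjusted p = 6.648e-07). That call, too, was lost without EPF pool 2 or negative nodule 1 or 3.

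Oat had the largest fall of the 42 members. Oat encodes ornithine aminotransferase, a mitochondrial enzyme that turns ornithine into glutamate semialdehyde and is enriched near the central vein. Control signals were 9261, 10427, 11593, 8875 and 13357. They were 1958, 1905, 1469, 1461 and 2820 in EPFs, 893, 1105, 2190, 2037 and 926 in positive nodules and 4380, 5190, 9261, 5248 and 5519 in negative nodules. EPFs and positive nodules overlapped with each other and lay below all other arrays, and negative nodule 3 reached the controls. Oat was 5.67-fold lower in EPFs (log2 change -2.50, SE 0.24, adjusted p = 1.379e-08 from limma) and 7.99-fold lower in positive nodules (-3.0, adjusted p = 1.34e-09). In negative nodules the change was -0.89 (adjusted p = 0.01532). The start region of Oat printed above held neither a TATAAA nor an antioxidant core.

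**Figure D3:**
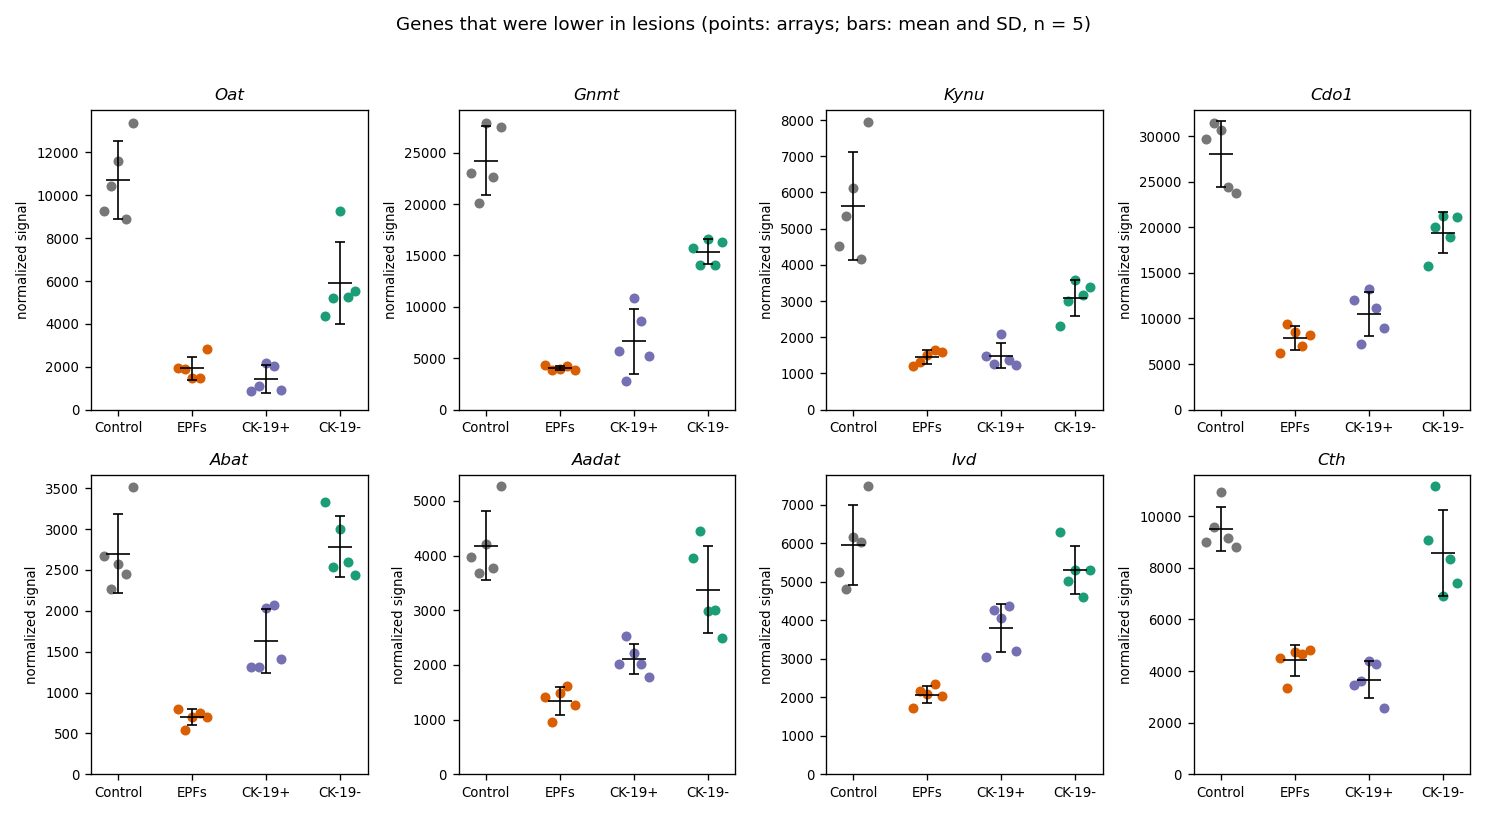
Normalized signal (linear, from 0) of 8 genes called lower in EPFs, on each array (points) with the mean and SD of 5 arrays per group; CK-19+ and CK-19- are the positive and negative nodules. For each gene, all EPF arrays lie below all control arrays. Abat, Aadat and Ivd are lower in EPFs than in positive nodules, while Oat overlaps between them.

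The aspartate aminotransferases behaved unlike each other. Got1, the cytosolic form, moves amino groups between glutamate and aspartate in the malate-aspartate shuttle. Its signals were 3587, 3015, 4387, 4134 and 5837 in control liver and 19504, 19708, 11946, 4256 and 19504 in EPFs. In positive nodules they were 2820, 1329, 2972, 3030 and 1990, and in negative nodules 3147, 4395, 6141, 5112 and 5294. EPFs had 4 arrays above every other array, and pool 4 lay within the control range. Got1 was 3.19-fold higher in EPFs than in control liver (log2 change 1.68, SE 0.33, adjusted p = 0.0001642 from limma) and, without pool 4, 2.08 on the log2 scale (adjusted p = 2.727e-07). It was 5.63-fold higher in EPFs than in positive nodules (2.49, 95% interval 1.81 to 3.18, adjusted p = 2.545e-06). In positive nodules it was at -0.82 against control (adjusted p = 0.04585), under 2-fold, and in negative nodules at 0.20. Got2, the mitochondrial form, was at 0.03 in EPFs, -0.51 in positive and -0.38 in negative nodules.

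Abat, which breaks down gamma-aminobutyrate and beta-alanine, had its lowest signals in EPFs. Control signals were 2675, 2270, 2575, 2446 and 3519, and EPF signals 800, 548, 705, 745 and 705. positive nodules had 1318, 1313, 2039, 2077 and 1411, and negative nodules 3326, 2539, 3005, 2603 and 2442. The groups formed 3 separate levels: control liver with negative nodules, then positive nodules, then EPFs. Abat was 3.83-fold lower in EPFs than in control liver (log2 change -1.94, SE 0.15, adjusted p = 3.284e-10 from limma), 2.29-fold lower than in positive nodules (adjusted p = 1.119e-06) and 3.98-fold lower than in negative nodules (adjusted p = 4.365e-10). Against control it was at -0.74 in positive nodules (adjusted p = 0.0002767), under 2-fold.

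The remaining glutamate genes differed by less than 2-fold from control. Gls2, the liver glutaminase that feeds ammonia to the urea cycle, was at -0.72 in EPFs, -0.83 in positive and 0.23 in negative nodules on the log2 scale. Gpt, alanine aminotransferase, was at -0.78, -0.33 and 0.08. Glud1, glutamate dehydrogenase, was at -0.31, -0.55 and -0.44. Of these, Gls2 was called between the nodules, 2.09-fold lower in positive than in negative nodules (adjusted p = 0.0003594 from limma), a call that did not hold with a fixed term for chip (-0.95, adjusted p = 0.06907) or without positive nodule 2 or 5.

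Sds was the member called higher in negative nodules. It encodes serine dehydratase, a periportal enzyme that turns serine into pyruvate for glucose synthesis and follows diet and glucagon. Its signals varied within every group: 2129, 1261, 4952, 4625 and 4079 in control liver, 7092, 6247, 3348, 1476 and 10264 in EPFs, 4097, 1494, 4673, 5243 and 1492 in positive nodules, and 12068, 4469, 15589, 10900 and 14174 in negative nodules. In negative nodules 4 arrays lay above all others, and nodule 2 lay among the controls. Sds was 3.49-fold higher in negative nodules than in control liver (log2 change 1.80, SE 0.49, adjusted p = 0.01451 from limma). The fit with a fixed term for chip did not keep the call (1.95, adjusted p = 0.05335). Within chip 2 the difference was 0.98, over 4 nodules and a single control array, which is too few to test the call. In EPFs the change was 0.63 with an interval of -0.39 to 1.65. The related Sdsl was at 0.85 in EPFs (adjusted p = 2.623e-05), 0.29 in positive and 0.27 in negative nodules.

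Agxt, which clears glyoxylate by making glycine, was the other called member of the serine and glycine group. Control signals were 1290, 1004, 1601, 1215 and 661 and EPF signals 915, 558, 531, 460 and 883. positive nodules had 299, 228, 464, 396 and 257, and negative nodules 681, 544, 902, 716 and 929. positive nodules lay below all control and all negative arrays, and EPF pool 4 came just under the highest of them. Agxt was 3.49-fold lower in positive nodules than in control liver (log2 change -1.80, SE 0.24, adjusted p = 1.616e-06 from limma). In EPFs it was at -0.78 (adjusted p = 0.007532) and in negative nodules at -0.58 (adjusted p = 0.1008). The glycine cleavage genes went separate ways in positive nodules, where Gldc was at -0.95 (adjusted p = 0.002825) and Amt at 0.48 (adjusted p = 0.001559), both under 2-fold. Agxt2, which handles beta-aminoisobutyrate and glyoxylate, was at -0.46 in EPFs and -0.28 in positive nodules.

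**Figure D4:**
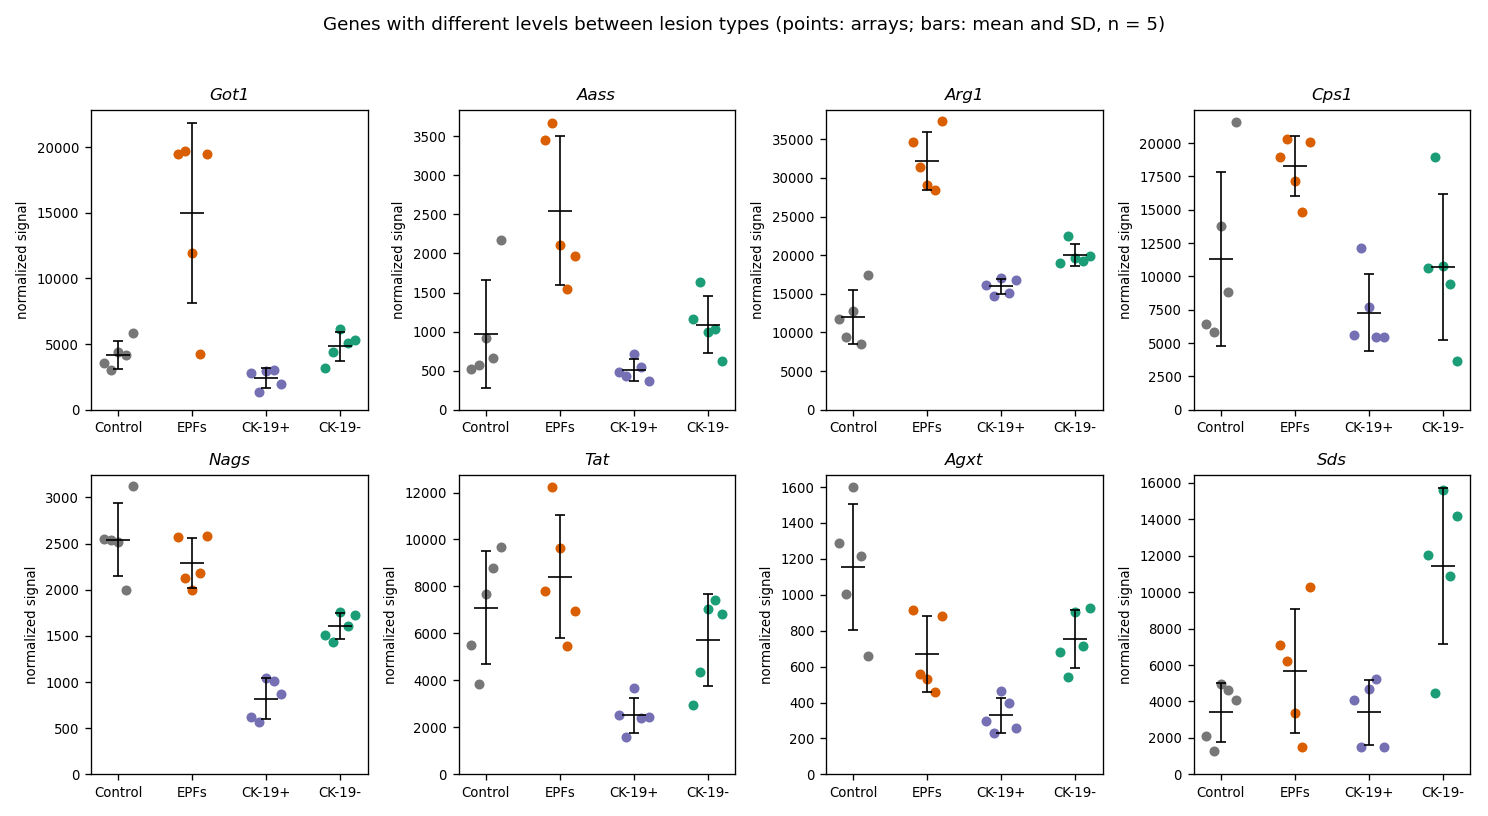
Normalized signal (linear, from 0) of 8 genes whose level differed between kinds of lesion, on each array (points) with the mean and SD of 5 arrays per group; CK-19+ and CK-19- are the positive and negative nodules. Got1, Aass, Arg1 and Cps1 are highest in EPFs, Nags, Tat and Agxt lowest in positive nodules, and Sds is highest in negative nodules, each with the overlaps given in the text.

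In methionine and cysteine breakdown, 3 of 7 members were called lower in EPFs (42.9%, against 6.15% of all genes tested). In positive nodules 5 of 7 were called lower (71.4%, against 4.9%), of which Mat1a was not called with a fixed term for chip. Methionine is activated by Mat1a to S-adenosylmethionine, whose surplus methyl groups Gnmt passes to glycine. Gnmt had control signals of 22996, 20067, 27914, 22621 and 27479. In EPFs they were 4297, 3875, 3909, 4224 and 3858, in positive nodules 5752, 2802, 10900, 8646 and 5223, and in negative nodules 15704, 14087, 16625, 14087 and 16264. All lesion arrays lay below all controls, the negative arrays lay in between, and the EPF pools differed little from each other while the positive nodules were spread on both sides of them. Gnmt was 5.97-fold lower in EPFs (log2 change -2.58, SE 0.22, adjusted p = 2.114e-09 from limma) and 3.99-fold lower in positive nodules (-2.0, adjusted p = 1.492e-07). In negative nodules the change was -0.65 (adjusted p = 0.04894), under 2-fold.

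Cdo1, cysteine dioxygenase, commits cysteine to taurine and sulphate. Control signals were 29650, 31437, 30673, 24467 and 23804 and EPF signals 6174, 9430, 8482, 6955 and 8201. positive nodules had 12021, 7220, 13206, 11153 and 8906, and negative nodules 15771, 20067, 21251, 18919 and 21114. Every lesion array was below every control array, and every negative array was above the other lesions. Cdo1 was 3.58-fold lower in EPFs (log2 change -1.84, SE 0.15, adjusted p = 7.448e-10 from limma), 2.71-fold lower in positive nodules (-1.44, adjusted p = 5.107e-08) and at -0.53 in negative nodules (adjusted p = 0.01802).

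Cbs and Cth, which carry homocysteine to cysteine, were both low in positive nodules, and Cth in EPFs as well. Cth signals were 9019, 9569, 10933, 9141 and 8788 in control liver, 4525, 3341, 4749, 4650 and 4804 in EPFs, 3449, 3629, 4380, 4290 and 2587 in positive nodules and 9059, 11185, 6922, 8352 and 7401 in negative nodules. EPFs and positive nodules lay below both other groups. Cth was 2.16-fold lower in EPFs (log2 change -1.11, adjusted p = 8.772e-07 from limma) and 2.62-fold lower in positive nodules (-1.39, adjusted p = 5.066e-08). Cbs signals were 3033, 2770, 3679, 3950 and 2829 in control liver, 3187, 3366, 2188, 2151 and 3083 in EPFs, 869, 1296, 1279, 1575 and 1173 in positive nodules and 2539, 3120, 3726, 3077 and 2311 in negative nodules. The positive arrays lay below all others, and the other 3 groups overlapped. Cbs was 2.65-fold lower in positive nodules than in control liver (-1.40, SE 0.17, adjusted p = 3.275e-07) and at -0.23 in EPFs (95% interval -0.57 to 0.11).

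Mat1a signals were low on chip 1 in every group that was on it. Its signals were 1896, 1301, 3373, 2823 and 5151 in control liver, 2376, 4473, 2805, 2246 and 2815 in EPFs, 1056, 965, 1778, 1025 and 898 in positive nodules and 2675, 5082, 3396, 3730 and 652 in negative nodules. The 8 arrays of chip 1, which are the 5 positive nodules, controls 1 and 2 and negative nodule 5, held the lowest signals. Mat1a was called 2.36-fold lower in positive nodules (log2 change -1.24, adjusted p = 0.01585 from limma). The change was -0.50 within chip 1 (adjusted p = 0.1434) and -0.25 with a fixed term for chip (adjusted p = 0.5577), and it missed the threshold without control 5 (-0.99). Ahcy, which clears S-adenosylhomocysteine, and Bhmt, which returns homocysteine to methionine, were lower by less than 2-fold, at -0.52 and -0.86 in EPFs and -0.67 and -0.90 in positive nodules.

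Lysine breakdown was split. Aass opens the main mitochondrial route through saccharopine, and Aadat removes the second amino group of lysine and also acts on kynurenine. Aass signals were 519, 576, 915, 656 and 2177 in control liver, 3453, 3670, 2105, 1542 and 1972 in EPFs, 480, 431, 718, 549 and 364 in positive nodules and 1157, 1639, 997, 1029 and 621 in negative nodules. Control 5 lay among the EPFs, the other controls below them, and all EPFs above all positive nodules. Here too controls 1 and 2 and negative nodule 5, on chip 1 with all positive nodules, were the lowest of their groups. Aass was 2.91-fold higher in EPFs than in control liver (log2 change 1.54, SE 0.32, adjusted p = 0.0003358 from limma) and 4.87-fold higher than in positive nodules (2.28, adjusted p = 6.094e-06). Aadat signals were 3981, 3685, 4212, 3776 and 5267 in control liver, 1414, 952, 1489, 1615 and 1263 in EPFs, 2026, 2522, 2218, 2019 and 1775 in positive nodules and 3950, 4450, 2995, 3005 and 2498 in negative nodules. EPFs lay below all other arrays and positive nodules below all controls. Aadat was 3.13-fold lower in EPFs (-1.65, SE 0.16, adjusted p = 8.407e-09) and at -0.98 in positive nodules (adjusted p = 1.792e-05), just under 2-fold.

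Branched-chain breakdown was lower in EPFs at Ivd, isovaleryl-CoA dehydrogenase of the leucine route. Its signals were 5257, 4804, 6165, 6040 and 7494 in control liver and 1716, 2175, 2089, 2342 and 2026 in EPFs. They were 3054, 4275, 4056, 4369 and 3192 in positive nodules and 6281, 5018, 5316, 4606 and 5316 in negative nodules. EPFs lay below all other arrays, and positive nodules lay between EPFs and the rest. Ivd was 2.86-fold lower in EPFs (log2 change -1.51, SE 0.13, adjusted p = 1.65e-09 from limma) and at -0.65 in positive nodules (adjusted p = 0.0002362). The subunits of the branched-chain dehydrogenase differed in EPFs: Bckdha was at -0.76 (adjusted p = 8.986e-07) and Bckdhb at 0.05 (95% interval -0.28 to 0.37). Pccb, a propionyl-CoA carboxylase subunit, was at -0.87 in EPFs and -0.64 in positive nodules, and its signals lay close to the filter, between 217 and 465 over all arrays.

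The lesions were then set against each other. Between EPFs and positive nodules, 10 of 42 members were called higher in EPFs and 1 lower (23.8% and 2.38%), against 2.74% and 3.43% of all genes tested. Higher in EPFs were Aass, Agxt, Arg1, Asl, Cbs, Cps1, Got1, Mat1a, Nags and Tat, and lower was Abat. In 8 of the 10 every EPF array lay above every positive array. Of the 6 urea cycle members 4 were called higher in EPFs (Arg1, Asl, Cps1 and Nags) and 0 lower, with a median difference of 1.05 over the 6. Of the 4 branched-chain and propionyl-CoA members 0 were called, with 3 values below 0, 1 above and a median of -0.44. Positive nodules were on chip 1 and EPFs on a chip of their own, so chip and lesion cannot be told apart here. Controls 1 and 2 and negative nodule 5, also on chip 1, were the lowest of their groups for Cps1, Mat1a and Aass. Agxt was called at 1.02 (adjusted p = 0.001257 from limma) and Mat1a at 1.36 (adjusted p = 0.008429). The Agxt call was lost without any of 5 single arrays, EPF pools 1 and 5 and positive nodules 1, 2 and 5 (0.89 to 0.996), and when signals under 300 were raised to 300 (0.89).

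**Figure D5:**
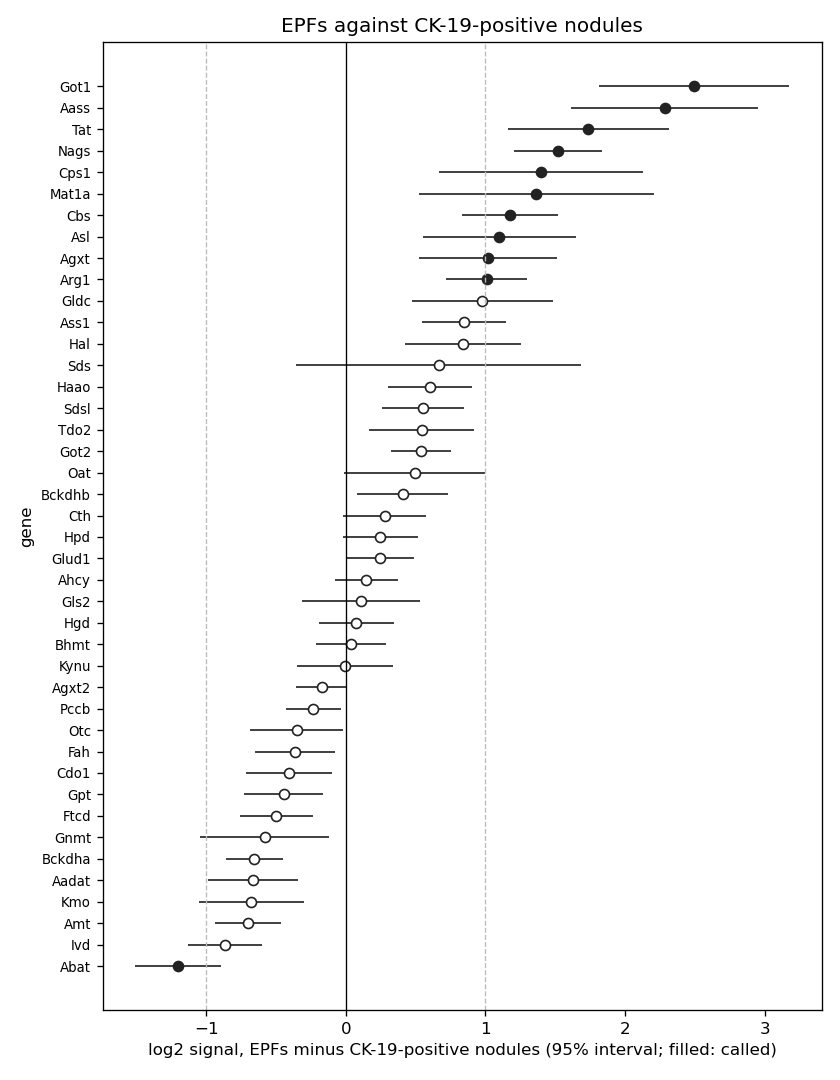
Log2 signal of EPFs minus that of positive nodules for each of the 42 genes, ordered by size, with the 95% interval from limma; filled points were called and dashed lines mark 2-fold. Got1 and Aass are at the top, and Abat at the bottom is the gene called lower in EPFs.

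Between the nodules, 14 of 42 members were called lower in positive than in negative nodules and 0 higher, against 2.39% of all genes in each direction. They were Aass, Agxt, Cbs, Cth, Gls2, Gnmt, Got1, Haao, Kynu, Mat1a, Nags, Oat, Sds and Tat, and in 10 of the 14 the groups did not overlap. Oat differed most, 4.32-fold (log2 difference -2.11, adjusted p = 1.144e-06 from limma), followed by Sds at -1.84 (adjusted p = 0.006785), Gnmt at -1.35 (adjusted p = 7.847e-05) and Cbs at -1.26 (adjusted p = 5.048e-06). The positive nodules were all on chip 1 and 4 of the 5 negative nodules on chip 2. With chip as a fixed block 7 of the 14 calls remained, and Aass (-0.39), Cbs (-0.95), Gls2, Got1 (-0.96), Mat1a (0.27), Sds (-1.49) and Tat (-1.07) were lost. Without positive nodule 2 there were 9 calls. Nags kept its call with chip as a fixed block. Its difference fell under 2-fold without negative nodule 3 or 5 or positive nodule 1 or 2 (-0.98, -0.98, -0.92 and -0.88). Haao fell under 2-fold without positive nodule 2 (-0.96). Aass, Gls2, Got1 and Mat1a were also lost without some single arrays.

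Between EPFs and negative nodules, 11 of 42 members were called lower in EPFs and 2 higher, against 4.79% and 4.13% of all genes. Lower were Aadat, Abat, Bckdha, Cdo1, Ftcd, Gnmt, Ivd, Kmo, Kynu, Oat and Sds, of which 10 did not overlap, and higher were Aass and Got1. Abat (-1.99), Gnmt (-1.93) and Oat (-1.62) differed most on the log2 scale. Sds stood at the threshold (-1.17, adjusted p = 0.04998 from limma) and was lost in most alternatives, among them without EPF pool 4 (-0.75, adjusted p = 0.18). Kmo (-1.08) was lost without EPF pool 2 (-0.92). Over the 42 members the median difference was 0.26 for EPFs against positive nodules, -0.55 for positive against negative nodules and -0.34 for EPFs against negative nodules.

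Several members are zoned along the lobule. Of 8 periportal markers measured, Sds, Hal and Gls2 are themselves members, and the other 5 had summed signals of 32981 to 51996 in control liver, 16896 to 24051 in EPFs, 17181 to 27124 in positive and 24573 to 45243 in negative nodules. Summed signals of 9 perivenous markers were 78651 to 88818 in control liver, 32362 to 54737 in EPFs, 33252 to 59477 in positive and 64673 to 82802 in negative nodules. Of these 9, 7 were tested, and Lgr5 was under 200 on every array. In EPFs and in positive nodules 2 of the 7 were called lower (28.6%, against 6.15% and 4.9% of all genes). In each of the 3 lesions 1 was called higher (14.3%, against 6.26%, 4.95% and 1.29% of all genes). The perivenous sum therefore does not stand for each marker. Both sums were below all controls in EPFs and positive nodules. Their part in the lower signals of Oat, Hal or Gls2 was not tested.

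Of 37 tested genes in a wider list of amino acid enzymes, 7 were called lower in EPFs (18.9%, against 6.15% of all genes) and 5 in positive nodules (13.5%, against 4.9%). Higher were 3 in each (8.11%, against 6.26% and 4.95% of all genes, which is near the background), and negative nodules had 0 lower and 1 higher (2.70%, against 1.29%). Odc1, ornithine decarboxylase, which sends ornithine to polyamines, had control signals of 123, 129, 142, 136 and 354. EPFs had 1500, 1646, 1294, 1113 and 1219, positive nodules 1145, 775, 1039, 828 and 936, and negative nodules 430, 490, 584, 458 and 689. All lesion arrays were above all controls, and the lesions formed 3 ranges, of which those of EPFs and positive nodules overlapped. Odc1 was called higher in all 3 lesions (adjusted p = 9.516e-11, 2.549e-09 and 7.748e-06 from limma). As 4 of 5 controls were under 200, its fold is a lower bound with those arrays set to 200: at least 5.98-fold higher in EPFs, at least 4.17-fold in positive and at least 2.33-fold in negative nodules. Phgdh, which opens serine synthesis, was under 200 on every control array and at least 4.28-fold higher in EPFs and at least 2.38-fold higher in positive nodules, taking 200 as the control level. Dmgdh, dimethylglycine dehydrogenase of the choline route, was at -1.66 in EPFs, and Asrgl1, an asparaginase-like enzyme, at -1.43 in EPFs and -1.36 in positive nodules.

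Of 12 tested amino acid transporters, 2 were called lower and 1 higher in EPFs, again 2 lower and 1 higher in positive nodules, and 1 lower in negative nodules. A single gene of the 12 is 8.33%, so that the higher calls were near the share of all genes (6.26% in EPFs and 4.95% in positive nodules). The lower calls, only 2 genes, made up 16.7% in EPFs and in positive nodules, against 6.15% and 4.9% of all genes. In negative nodules 0.656% of all genes were called lower. Slc3a2, the heavy chain of several amino acid exchangers, was at 1.39 in EPFs and 1.73 in positive nodules on the log2 scale. Slc6a13, a carrier of gamma-aminobutyrate, was at -1.40 and -1.62, and Slc6a6, the taurine carrier, at -1.50 and -1.06 and at -1.17 in negative nodules. Of 10 tested hormone and transcription regulators of these pathways, 2 were called lower in positive nodules (20%, against 4.9% of all genes). They were the liver factors Cebpa (-1.38, adjusted p = 0.0002857 from limma) and Foxa1 (-1.03, adjusted p = 1.126e-07). In EPFs and negative nodules 0 were called lower, against 6.15% and 0.656% of all genes. In EPFs Cebpa was at -0.78 (adjusted p = 0.0206) and Foxa1 at -0.44 (adjusted p = 0.002).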

How the data were processed

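RNA of 20 microdissected samples had been amplified, hybridised to 1-colour Illumina RatRef-12 arrays and read with BeadStudio 3.0.19.0 (submitters' processing notes). The authors applied quantile normalization between arrays, and the intensities they deposited are linear values, for which no background step is stated. The table before normalization has 40 value columns that could be tied to no sample by name and were left unused. The probe annotation named 13793 of 22523 probes, and the brightest probe over all arrays stood for a gene. Genes with a signal above 200 on 5 or more arrays were tested, 6102 of 13337. Log2 signals were fitted with limma 3.58.1 in R 4.3.3 (4 group means, all 20 arrays, empirical Bayes) and p-values were adjusted by Benjamini-Hochberg over the 6102 genes. A gene was called at an adjusted p under 0.05 and at least 2-fold. The script was tested on simulated data. Figures were drawn with matplotlib 3.10.9 in Python 3.11.15.

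The members and lists were chosen with earlier results of these data known. Signals of every array are given, by rule, for the largest change in each amino acid group, the 10 largest called changes and the urea and ornithine genes Cps1, Arg1 and Oat; Aass, Mat1a, Cbs and Cth were added after their values were seen. Arrays were numbered 1 to 5 within a group by accession order, a name that pairs nothing. Alternatives were no filter, a filter at 300 or the study's filter, 50 added or the 10% point subtracted before log2, signals under 300 raised to 300, every probe by itself, chip as a random or fixed block, fits within chip 1 and chip 2, fits restricted to the 2 groups at hand, an unadjusted p under 0.01 with 2-fold, the methods' t-test, adjusted p alone, and each array left out. The number of arrays limits the precision. Hepatocellular carcinomas, stainings and RT-PCR were not analysed here.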

Additional observations from a re-analysis of the deposited data

Results flagged for a closer look

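Stray arrays were looked for in 76 groups of 5 arrays (19 members in 4 groups), of which chance marks about 1 in 20. In 5 of them an array stood apart, with the gap to its nearest neighbour given as a share of the group's range on the log2 scale. For Arg1, negative nodule 2 was high (share 0.735). For Hal, negative nodule 4 was low (0.714). For Sds, negative nodule 2 was low (0.714). For Mat1a, positive nodule 3 was high (0.762). For Cth, EPF pool 2 was low (0.835).

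Over the 42 tested members, there were 13 cases, in 11 members, in which the signs of the changes against control were opposite in a pair of lesions and the direct contrast between them was called by limma. EPFs against positive nodules differed by 1.40 on the log2 scale for Cps1, 1.10 for Asl, 1.74 for Tat, 2.49 for Got1, 2.28 for Aass and 1.36 for Mat1a. Positive against negative nodules differed by -1.02 for Got1, -1.06 for Gls2, -1.84 for Sds and -1.07 for Aass. With chip as a fixed block, each of these calls between the nodules was lost (-0.96, -0.95, -1.49 and -0.39). EPFs against negative nodules differed by -1.99 for Abat, -1.02 for Ftcd and -1.07 for Bckdha. In 0 of the 13 were both lesions of the pair called against control. EPFs were on a chip of their own, which cannot be told apart from the lesion.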

How the results depend on the processing

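Counts of called members stayed within 1.5 times of the values reported under 11 to 13 of the alternatives per comparison (9 for negative nodules against control). With adjusted p alone and no fold limit, the counts were 29 for EPFs and 33 for positive nodules against control, 11 for negative nodules against control, 30 for EPFs against positive nodules, 31 for EPFs against negative nodules and 30 between the nodules. A rule without a fold limit calls more genes of every kind. Its shares of all genes are not given here, so these counts say nothing particular to the members. The 2 calls of negative nodules became 1 with 50 added before log2 and 1 with the methods' t-test after Benjamini-Hochberg, and 0 with chip as a fixed block. They became 0 within chip 2 too, where the controls are a single array, so that this count says nothing of their stability. Between the nodules 7 remained with chip as a fixed block. Leaving out each array in turn gave 12 to 13 calls for EPFs, 11 to 14 for positive and 1 to 3 for negative nodules against control, 8 to 12 for EPFs against positive nodules, 10 to 14 for EPFs against negative nodules and 9 to 15 between the nodules. The lowest count of negative nodules came without control 3, control 5 or negative nodule 4, and the lowest between the nodules without positive nodule 2. Of single called values, 772 kept their call, 36 lost it and 1 turned its sign (Mat1a between the nodules, 0.27 with chip as a fixed block). With 1 array left out 1228 kept it and 52 lost it. The cause of these losses was not tested. The kept totals overstate the stability, because some settings could hardly lose a call. Leaving out an array outside the 2 groups compared does not move the log2 difference. Adjusted p alone is a looser rule, and testing every probe by itself changes no signal, as each member had 1 probe. No paired analysis was possible because 1 replicate number covers every array of a group in the labels. Signals near background compress differences, which bears on Pccb, Hal and Agxt.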
